A study of Canis lupus familiaris with 2 samples.

Results

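The genes described here carry salt and water across the epithelium of the kidney tubule. They are the sodium pump beta subunit genes ATP1B1 and ATP1B3, the chloride channel gene CFTR, the epithelial sodium channel genes SCNN1A, SCNN1B and SCNN1G, and the aquaporin genes AQP1, AQP2 and AQP3. They were chosen by gene symbol, and all 9 were found among the 23510 features of the expression tables. MDCK cells, an established line of canine kidney epithelium, were plated at 40000 cells on culture inserts and kept in Eagle's minimum essential medium with fetal calf serum. At day 3, RNA was taken from 1 culture in 2-cm-high medium, which the labels describe as without pressure and also as 2 cm H2O, and from 1 culture in 50-cm-high medium, that is, under a load of 50 cm H2O. They are called the 2-cm and 50-cm cultures from here on. The samples carry no drug, transgene or deletion, and the question was how the height of the medium alters gene expression in a columnar epithelium. Because each height is represented by 1 library, no value below has a replicate error, no difference was tested, and the height of the medium, the culture and the library cannot be told apart. RNA came from whole cultures, so fewer cells expressing a gene and less RNA per cell cannot be told apart either.

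Sodium crosses such an epithelium in successive steps. The epithelial sodium channel, built of alpha, beta and gamma subunits, lets sodium in at the apical membrane, and the sodium pump exports it at the basolateral membrane in exchange for potassium. The pump pairs a catalytic subunit with a beta subunit that carries it to the membrane, and small FXYD proteins tune its affinity for ions. CFTR is a cAMP-gated chloride channel of the apical membrane. Aquaporins pass water, AQP2 at the apical side of collecting duct principal cells under vasopressin, AQP3 at their basolateral side, and AQP1 mainly in the proximal tubule and thin descending limb.

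Expression is given as FPKM, fragments on a gene scaled by the exon length of the gene and by the mapped fragments of the library. This scaling is meant to make levels comparable between genes and between cultures. How the 2 libraries were scaled to each other is not given, and small differences depend on it. A gene was counted as changed when its FPKM value was above 1 in both cultures and differed more than 2-fold. By this rule, none of the 9 genes changed, and 4 of them, ATP1B1, ATP1B3, SCNN1A and AQP3, were above 1 FPKM in both cultures. Over all 11057 features above 1 FPKM in both, 0.389% were more than 2-fold higher and 1.28% more than 2-fold lower at 50 cm. The 4 genes had a median log2 ratio of -0.25 (50-cm over 2-cm FPKM), with ATP1B1 and ATP1B3 higher (ATP1B1 by an amount whose sign turns with the scaling) and SCNN1A and AQP3 lower, beside a median of 0.015 over all 11057 features. The other 5 genes did not pass the FPKM minimum. Of these, SCNN1B was just below 1 FPKM at 50 cm, CFTR and AQP1 were listed at 0 in one of the cultures, and SCNN1G and AQP2 in both. The order of levels was the same in the 2 cultures, with ATP1B1 highest, followed by ATP1B3, AQP3, SCNN1A and SCNN1B. Whether neighbours in that order differ beyond replicate error could not be assessed.

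**Figure D1:**
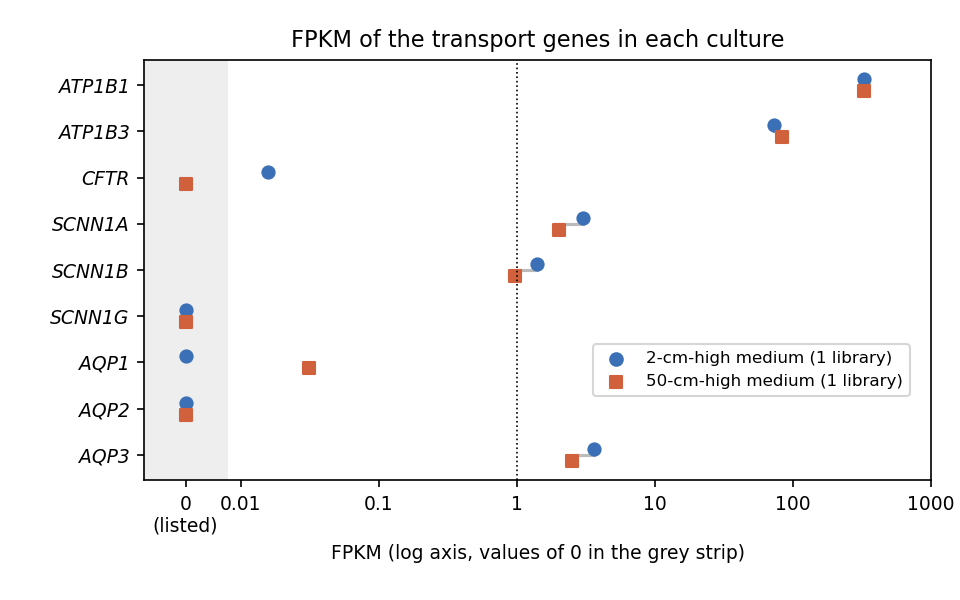
FPKM (log axis) of the 9 transport genes, with a circle for the library from 2 cm, a square for the library from 50 cm, and the value 0 drawn in the grey strip. The dotted line marks 1 FPKM. ATP1B1 and ATP1B3 lay between 72.9 and 329 FPKM in both cultures, and AQP3, SCNN1A and SCNN1B between 0.965 and 3.63 FPKM.

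ATP1B1 encodes the beta subunit that predominates in kidney epithelium. Its level was 325.4 FPKM at 2 cm and 328.5 FPKM at 50 cm. The ratio of 1.01 lay in the middle of the distribution, since 5518 of the 11057 features had a lower ratio and 5538 a higher one. The direction of so small a difference depended on the scaling, the log2 ratio being 0.014 as deposited and -0.045 after quantile normalization. ATP1B1 was the 250th most abundant of all features at 2 cm and the 259th at 50 cm. ATP1B3, which encodes the other beta subunit detected here, had 72.9 and 82.7 FPKM, respectively, a ratio of 1.13 (log2 ratio 0.18). Among features of similar level, the 10th to 90th percentiles of the log2 ratio ran from -0.21 to 0.34, and ATP1B3 was inside that range. ATP1B1 therefore made up 81.7% of the summed FPKM of the 2 beta subunit genes at 2 cm and 79.9% at 50 cm.

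The other beta subunit genes, ATP1B2 and ATP1B4, were listed at 0 in both cultures. Among the beta subunit and FXYD genes above 1 FPKM in both cultures, the largest difference was that of FXYD2, the gamma subunit typical of kidney, which had 50.4 FPKM at 2 cm and 16.3 FPKM at 50 cm. This was 3.09-fold lower (log2 ratio -1.63), and 12 of the 11057 features had a lower ratio. Among features of similar level, the 10th to 90th percentiles of the log2 ratio ran from -0.24 to 0.33. FXYD5, also called dysadherin, was in the opposite direction, with 94.5 and 132 FPKM (ratio 1.40). The level of FXYD5 was thus 1.87 times that of FXYD2 at 2 cm and 8.09 times at 50 cm. Of the 10 beta subunit and FXYD genes found, 4 were above 1 FPKM in both cultures, with a median log2 ratio of 0.098. FXYD2 was the only one of them changed more than 2-fold, beside 1.28% of all features lower and 0.389% higher by that much. FXYD6 was 2.36-fold lower, from 2.12 to 0.895 FPKM, and so missed the FPKM minimum at 50 cm. FXYD1, FXYD3 and FXYD4 were between 0.0605 and 0.778 FPKM.

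**Figure D2:**
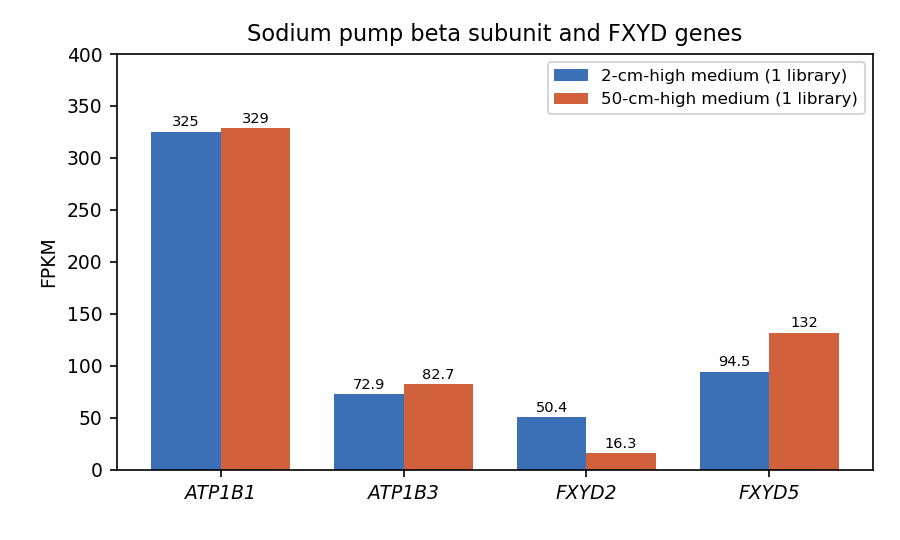
FPKM (linear axis from 0) of the 4 sodium pump beta subunit and FXYD genes above 10 FPKM in both cultures, with 1 bar per library and no error bars because each height had 1 library. ATP1B1 and ATP1B3 had ratios of 1.01 and 1.13, FXYD5 stood at 94.5 and 132 FPKM, and FXYD2 at 50.4 and 16.3 FPKM.

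The sodium channel genes were expressed at far lower levels than the pump beta subunits. SCNN1A, the alpha subunit gene, had 3.02 FPKM at 2 cm and 2.02 FPKM at 50 cm, 1.49-fold lower (log2 ratio -0.58). Of the 11057 features, 5.13% had a lower ratio. SCNN1B, the beta subunit gene, had 1.41 and 0.965 FPKM, 1.46-fold lower (log2 ratio -0.54). SCNN1G, the gamma subunit gene, was listed at 0 FPKM in both cultures, although in the dog RefSeq annotation it is the protein-coding neighbour of SCNN1B. The proportion of the 2 measured subunits was similar in the cultures, SCNN1A being 2.15 times SCNN1B at 2 cm and 2.10 times at 50 cm. The level of ATP1B1 was 107.6 times that of SCNN1A at 2 cm and 162.4 times at 50 cm.

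Such values may rest on few reads, whose number is not known. In genes of the lowest FPKM, ratios sat on steps left by whole reads, the FPKM of a single read being 9.77% higher at 50 cm. The ratio of SCNN1B was within 0.05% of that given by 5 reads at 50 cm against 8 at 2 cm, or by a multiple of these numbers. Such a match does not give the number of reads. BOLA2B, at 41.7 FPKM at 2 cm and 45.8 FPKM at 50 cm, also had the ratio of 1 read to 1 read. SCNN1A and AQP3 were at no ratio that 10 or fewer reads in each culture give. Over all features, ratios also varied with level. Whether level accounts for the ratios of these genes was not tested. When the 11057 features were ranked by level into 10 equal groups, the lowest group, which holds SCNN1A, had a median log2 ratio of -0.17, with a 10th to 90th percentile range of -0.74 to 0.38. The highest group, which holds ATP1B1, had a median of 0.070 and a range of -0.16 to 0.33. SCNN1A was inside the range of its own group and below its median. Quantile normalization, which brings the 2 libraries to a common distribution of values, moved the log2 ratio of SCNN1A to -0.40 and that of SCNN1B to -0.30. Whether it removed the variation with level was not tested.

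**Figure D3:**
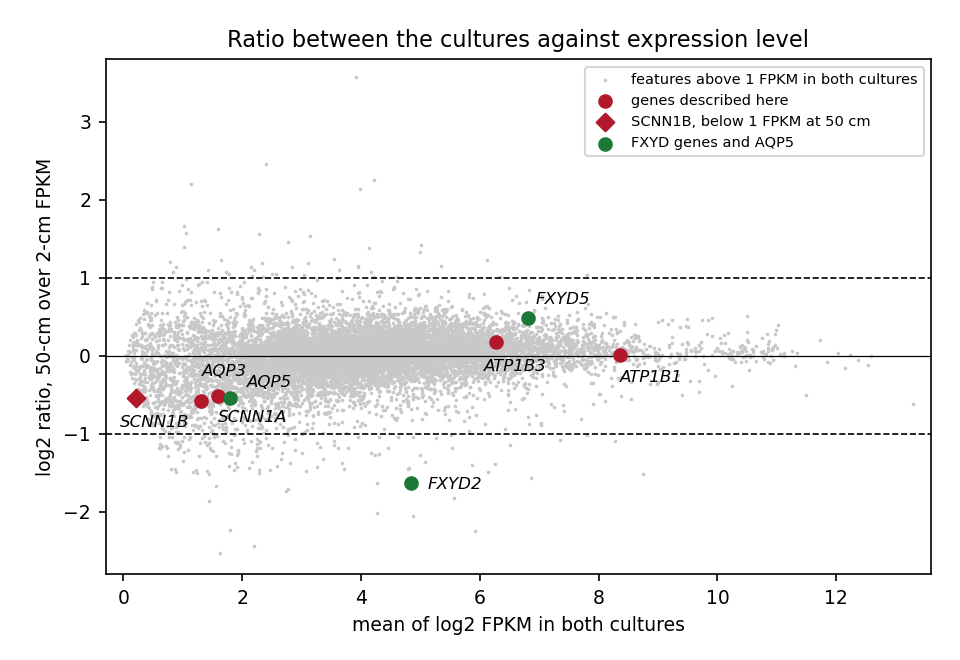
Log2 ratio of 50-cm over 2-cm FPKM against the mean of the log2 FPKM values, with grey points for the 11057 features above 1 FPKM in both cultures and dashed lines at 2-fold. SCNN1A, SCNN1B, AQP3 and AQP5 lay together at low level with log2 ratios of -0.52 to -0.58, ATP1B1 and ATP1B3 lay near 0 at high level, and FXYD2 lay at -1.63, past the lower dashed line.

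Regulators of the sodium channel ranged from levels far above the channel genes to 0. SGK1, a kinase that keeps the channel at the membrane, had 77.9 FPKM at 2 cm and 79.4 FPKM at 50 cm. NEDD4L, the ubiquitin ligase that removes it, had 51.9 and 47.2 FPKM, and PRSS8, the channel-activating protease prostasin, 21.1 and 24.0 FPKM. By contrast, NR3C2, the mineralocorticoid receptor, did not exceed 0.0615 FPKM, and HSD11B2, the enzyme that shields this receptor from glucocorticoids, had 0.549 and 0.804 FPKM. The delta subunit gene SCNN1D was at 0.0325 and 0.249 FPKM. The list of regulators and proteases also holds SCNN1D. Of its 25 genes found, 18 were above 1 FPKM in both cultures, and none of the 18 changed more than 2-fold. Over all 11057 features, 1.28% were lower and 0.389% higher by that much. The 18 genes had a median log2 ratio of 0.019. Of them, 12 were higher and 6 lower, beside 5820 higher and 5236 lower of all features. The lowest ratio was that of WNK4, a kinase controlling distal salt transporters, which had 4.29 and 2.34 FPKM (1.84-fold lower). TSC22D3, a glucocorticoid-induced gene also known as GILZ, had 18.5 and 11.6 FPKM (1.59-fold lower). Of the 18, these 2 were more than 1.5-fold lower and none was more than 1.5-fold higher, beside 5.06% and 2.13% of all 11057 features, respectively. WNK2 had the highest ratio, 1.21.

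CFTR was barely above 0. It had 0.0158 FPKM at 2 cm and was listed at 0 at 50 cm, so no ratio is given. A listed 0 does not show that RNA was absent, since ATP5O, which encodes a subunit of the mitochondrial ATP synthase, was listed at 0 in both cultures too. Of 71 ribosomal protein genes, however, 0 were listed at 0 in both cultures. Genes of proteins that anchor CFTR varied widely in RNA level. SLC9A3R1, the scaffold NHERF1, had 92.3 FPKM in both cultures, and EZR, which encodes ezrin, had 261 FPKM at 2 cm and 332 FPKM at 50 cm (ratio 1.27). Other scaffold genes were lower in level, PDZK1 with 5.49 and 5.19 FPKM and SLC9A3R2 with 2.76 and 2.27 FPKM. None of the 23 genes above 1 FPKM in both cultures among chloride channels and CFTR partners changed more than 2-fold. Over all 11057 features, 1.28% were lower and 0.389% higher by that much. Of the 23 genes, 7 were higher and 16 lower, beside 5820 higher and 5236 lower of all features. Their median log2 ratio was -0.079, with the lowest ratio, 0.710, in CLCN4, a chloride-proton exchanger of endosomes. The basolateral route for chloride entry, the cotransporter gene SLC12A2 (NKCC1), had 28.7 and 23.6 FPKM (ratio 0.820). SLC12A4, a potassium-chloride cotransporter, had the highest ratio of its family at 1.26, and the kidney-specific SLC12A1 and SLC12A3 were listed at 0 in both cultures.

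AQP3 was the only one of the 3 aquaporins described here above 1 FPKM. It had 3.63 FPKM at 2 cm and 2.53 FPKM at 50 cm, 1.43-fold lower (log2 ratio -0.52). The 10th to 90th percentiles of the log2 ratio among features of similar level ran from -0.62 to 0.32, which includes this value, and quantile normalization moved it to -0.36. AQP1 was listed at 0 at 2 cm and had 0.0314 FPKM at 50 cm, and AQP2, the vasopressin-regulated water channel, was listed at 0 in both. The genes that follow AQP2 on its chromosome in the RefSeq annotation are aquaporins too, and both were above 0. AQP5 had 4.18 and 2.88 FPKM, 1.45-fold lower, and AQP6 0.0208 and 0.0912 FPKM. AQP3 and AQP5 together made up 80.6% of the summed FPKM of the 12 aquaporin genes found at 2 cm and 72.9% at 50 cm. AQP5 was 1.15 times AQP3 at 2 cm and 1.14 times at 50 cm. AQP11, an intracellular aquaporin, had 1.15 and 1.26 FPKM, a ratio of 1.10 that an equal number of reads in both cultures gives, and AQP10 0.593 and 0.625 FPKM. MIP and AQP7 did not exceed 0.0607 FPKM, and AQP4, AQP8 and AQP9 were listed at 0 in both cultures. AVPR2, the receptor through which vasopressin acts on AQP2, had 1.83 and 1.85 FPKM.

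**Figure D4:**
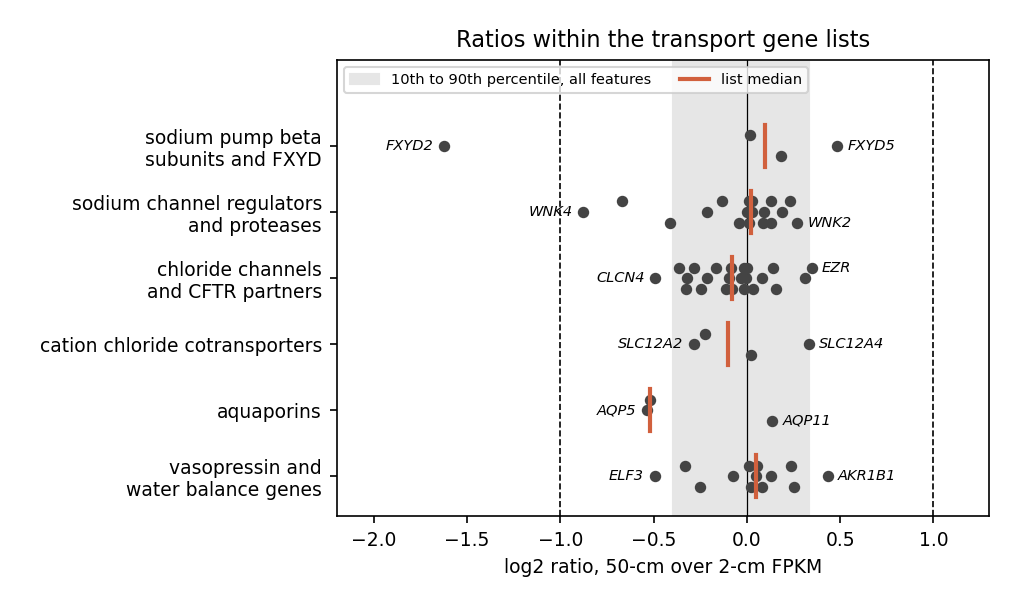
Log2 ratio of 50-cm over 2-cm FPKM of each gene above 1 FPKM in both cultures, by list, with an orange bar at the list median, dashed lines at 2-fold and grey shading from the 10th to the 90th percentile of all 11057 features (-0.40 to 0.33). FXYD2, at -1.63, is the only gene beyond a dashed line. AQP3 and AQP5 are both to the left of the shading, but inside the range of features of similar level (-0.62 to 0.32). Genes of other lists are also to its left, WNK4 and ELF3 among them, and others to its right, FXYD5 and AKR1B1 among them.

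The 6 transport lists include 6 of the 9 genes described here, but not SCNN1A, SCNN1B and SCNN1G. Over the 109 genes found in these lists, 65 were above 1 FPKM in both cultures. Of these, 34 were higher and 31 lower at 50 cm, beside 5820 higher and 5236 lower of all 11057 features. The median log2 ratio of the 65 was 0.0030. FXYD2 was the single one of the 65 changed more than 2-fold, beside 1.28% of all features lower and 0.389% higher by that much. Of the 10 markers of columnar epithelium and kidney tubule found, 9 were above 1 FPKM in both cultures, all with ratios within 2-fold. KRT8, a keratin of simple epithelium, had 1641 and 1561 FPKM, and CDH1, which encodes E-cadherin, 211 and 229 FPKM. CDH16, the cadherin of kidney tubules, had 1.96 and 0.676 FPKM. Markers of fibroblasts, endothelium and blood cells summed to 0.630 and 0.422 FPKM over 8 genes, of which 3 were listed at 0 in both cultures. Among 8 principal cell markers, AQP3 and AVPR2 were above 1 FPKM in both cultures, while AQP2, AQP4 and SCNN1G were listed at 0. Of 7 proximal tubule markers, SLC5A2 had 5.72 and 5.06 FPKM and CUBN 1.74 and 1.89 FPKM, while LRP2 was among 3 listed at 0 in both. Of 6 markers of the thick limb and distal tubule, TRPM6 had 1.15 and 0.586 FPKM, and the other 5, UMOD among them, were listed at 0 in both.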

How the data were processed

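The authors made stranded mRNA libraries from MDCK cells, sequenced 75-base single reads, aligned them to CanFam3.1 (TopHat 2.0.13 using Bowtie 2 2.2.3, with SAMtools 0.1.19) and deposited FPKM values from Cuffnorm 2.2.1, 1 table per culture. The gene annotation and the scaling between libraries are not given in the sources used here. Read totals are unknown, so no counting interval was computed.

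Ratios of 50-cm over 2-cm FPKM were taken without a pseudocount. Read steps were sought among 574 features that lay above 0 but under 0.1 FPKM at both heights, 219 of them at the ratio of 1 read to 1 read to within 0.2%. Gene neighbours are those of RefSeq assembly UU_Cfam_GSD_1.0, where all 9 symbols matched; its build differs from that of the files, so no coordinates are given.

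Some partner genes of the pump are not reported here. The 9 genes and the lists were chosen with earlier results of these data known. Named genes are the 9, their partner genes, and in each list those changed more than 2-fold and those with the highest and lowest ratio. HSD11B2, TSC22D3, SLC9A3R1, SLC9A3R2, PDZK1, SLC12A1, SLC12A3, SLC6A6, NFAT5, PTGER4, SGK2, ATP5O, the marker genes and the neighbours of FXYD2 were named after their values were seen. The closing section gives the alternatives tried. The scripts, run under Python 3.11.15 (numpy 2.4.6; pandas 2.3.3; matplotlib 3.10.9), were tested on simulated data.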

Additional observations from a re-analysis of the deposited data

How the results depend on the processing

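Across 39 values of the log2 ratio recomputed under the alternatives for ATP1B1, ATP1B3, FXYD2, SCNN1A, SCNN1B and AQP3, 37 kept their direction and their side of 2-fold. Most of this was fixed in advance. A different FPKM minimum leaves a ratio as it is, and a pseudocount cannot turn its direction. Only recentring and quantile normalization could turn a direction. The 2 values that turned belong to ATP1B1, whose log2 ratio was -0.00066 after recentring on the median and -0.045 after quantile normalization. The log2 ratio of SCNN1A ran from -0.59 to -0.40, that of SCNN1B from -0.56 to -0.29, that of AQP3 from -0.53 to -0.36, and that of FXYD2 from -1.65 to -1.57. None of the 9 genes was counted as changed at 2-fold under any alternative, nor at 1.5-fold with the values as deposited. SCNN1A was close to the second threshold, at 1.49-fold lower as deposited. Its log2 ratio of -0.59 after recentring was just past 1.5-fold. The 1.5-fold rule was not run on the recentred or quantile-normalized values. In the transport lists, an FPKM minimum of 0.1 in both cultures gave 3 genes more than 2-fold lower (FXYD2, FXYD6 and SGK2) and 1 higher (PTGER4) of 76, beside 3.77% lower and 1.72% higher of all 13280 features that pass it. A minimum of 1 FPKM in at least 1 culture with a pseudocount of 0.1 gave 2 lower of 66 (2.22% of all features). A 1.5-fold threshold gave 3 lower of 65, beside 5.06% of all 11057 features. With a minimum of 5 FPKM, SCNN1A, SCNN1B and AQP3 give no value. Genes at 0 have no ratio. No paired analysis was possible because each medium height has 1 library, and for the same reason no library could be left out.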

Other observations

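FXYD2 and FXYD6 are protein-coding neighbours in the RefSeq dog annotation, and both were lower in the 50-cm culture, FXYD2 with a ratio of 0.324 and FXYD6 with a ratio of 0.423. The genes on either side of the pair, TMPRSS13 and DSCAML1, had 0.510 and 0.403 FPKM and 0.0796 and 0.109 FPKM, respectively, and CEP164, the next beyond DSCAML1, had 13.9 FPKM in both cultures. The pair was chosen after its values were seen. FXYD6 was below 1 FPKM at 50 cm. Of the other FXYD genes found, FXYD5 was above 1 FPKM in both cultures and higher at 50 cm. FXYD1, FXYD3 and FXYD4 were also higher at 50 cm, but were below 1 FPKM in both cultures. Their ratios were among those that 10 or fewer reads in each culture give.

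Of 24 listed genes of water balance and osmolyte handling, 13 were above 1 FPKM in both cultures, 9 of them higher and 4 lower, with a median log2 ratio of 0.047 and none beyond 2-fold. The other 11 did not pass the FPKM minimum. Over all 11057 features, 5820 were higher and 5236 lower, with 0.389% higher and 1.28% lower by more than 2-fold. AKR1B1, the aldose reductase that makes the osmolyte sorbitol, had the highest ratio, 1.35, with 82.0 FPKM at 2 cm and 111 FPKM at 50 cm. SLC6A6, the taurine transporter, had 68.6 and 57.6 FPKM (ratio 0.840), and NFAT5, the transcription factor of the osmotic response, 4.68 and 4.45 FPKM. ELF3, an epithelial transcription factor, had the lowest ratio of the list, 0.709, with 157 and 111 FPKM. Markers of intercalated cells were uneven, with CA2, a carbonic anhydrase, at 576 and 448 FPKM, the proton pump subunit gene ATP6V1B1 at 43.5 and 43.1 FPKM, and 5 of the 8 listed at 0 in both cultures.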
